A study of Homo sapiens with 20 samples.

Results

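The genes described here are 6 genes of drug metabolism in MDA-MB-468 cells, namely UGT1A1, UGT1A6, UGT1A10, AADAC, FMO6P and FMO5. They were picked by name from the 60271 genes in the deposited table, with the change of their counts under EGF already known. Of the 6 genes, 5 passed the filter on low counts and UGT1A10 did not. Their differences between groups are therefore given as descriptions, with no test. Tests are given only for other genes of the pathway, for genes of the same chromosomal regions and for epithelial markers.

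MDA-MB-468 is an established line of triple-negative breast cancer cells with much EGF receptor, and EGF starts an epithelial-mesenchymal transition (EMT) in it. Cells were serum-starved and EGF was then added at 50 ng/mL, to be present for 12, 24, 48 or 72 h before harvest, while the untreated controls received none. According to the labels, the groups shared 1 schedule of seeding and harvest and differed in when EGF was given. Each of the 5 groups had 4 libraries, labelled as biological replicates of the same line. The p values set differences between groups against the spread among the libraries within groups, for this line only.

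Library totals ranged from 15611961 to 25856953 estimated counts. Values are given as CPM, the counts scaled to a common library total after TMM normalization, and errors are SDs within a group of 4 libraries. A count of 3 corresponded to 0.114 to 0.192 CPM, depending on the library, and lower values are near the detection limit. In every library, the epithelial markers EGFR, EPCAM, KRT8, KRT18, KRT19 and CDH1 were detected, at 82.9 CPM or more. Their summed level was 4820 to 5270 CPM in the control libraries, 18400 to 19200 after 12 h, 10400 to 13100 after 24 h, 6890 to 7700 after 48 h and 7860 to 8590 after 72 h of EGF. Most of this sum was EGFR, with a mean of 3470 CPM in the control and 5600 at 48 h, while CDH1 went from 127 to 92.8. In edgeR, 6 of 6 were higher than the control at 12 h (32.9% of all genes). At 24 h 4 were higher and 1 lower (29.2% and 29.6%), and at 48 h 1 higher and 2 lower (24% and 21.8%). At 72 h 3 were higher and 2 lower (30.6% and 31%). The part of these changes in the results was not tested. PGR was at 0 in all libraries, while ESR1 was at 1.91 to 6.53 CPM. Of 10 markers of blood, vessel, stroma, liver and gut cells, TTR, SI and ALPI were at 0 in all libraries. ALB reached at most 8 counts and VIL1 at most 2. Summed over these 10 markers, control libraries had 6.96 to 10.2 CPM, and EGF libraries had 9.49 to 10.9 CPM after 12 h, 12.1 to 15.9 after 24 h, 14.6 to 17.8 after 48 h and 16.8 to 18.2 after 72 h, mainly from COL1A1 and PECAM1. Its part in the results was not tested. These are bulk samples, in which fewer expressing cells and less RNA per cell cannot be told apart.

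UDP-glucuronosyltransferases join glucuronic acid to drugs, hormones and bilirubin and so make them soluble. The UGT1A genes are a single locus in which each gene starts with its own first exon, which encodes the part that binds the substrate, and splices it to the same set of later exons. AADAC is an esterase of the endoplasmic reticulum that hydrolyses arylacetamide drugs, and flavin-containing monooxygenases (FMO) oxidise drugs with the help of NADPH. These enzymes are best known from liver and gut.

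Because of the shared exons, much of the sequence of a UGT1A gene does not tell which of the genes a read came from. The sequences around the first splice junction show this. Each line below has the last 30 bases of a first exon in lower case and the first 30 bases of shared exon 2 in capitals, 5′ to 3′, read from GENCODE 29 transcripts on the plus strand of chromosome 2. They are shown for the UGT1A members and for UGT1A3 and UGT1A7, to which the largest other parts of the counts were assigned.
UGT1A1: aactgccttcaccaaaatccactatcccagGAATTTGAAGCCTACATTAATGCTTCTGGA
UGT1A6: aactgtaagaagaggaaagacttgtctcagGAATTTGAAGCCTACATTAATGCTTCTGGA
UGT1A10: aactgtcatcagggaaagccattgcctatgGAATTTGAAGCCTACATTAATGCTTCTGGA
UGT1A3: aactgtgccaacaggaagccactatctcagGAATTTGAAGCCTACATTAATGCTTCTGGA
UGT1A7: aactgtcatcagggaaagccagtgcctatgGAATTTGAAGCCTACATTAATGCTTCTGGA
The capitals are the same in all 5 lines, and the lower-case parts differ. In all 9 UGT1A transcripts exon 2 began at the same base, and the 1478 bases that could be compared after the first exon were identical in 1478 positions. Reads of this experiment were single-end and 75 bases long. Of the 75-base windows in the transcripts of UGT1A1, 49.1% also occurred in another UGT1A gene, against 40.2% for UGT1A6, 73.4% for UGT1A10, 77.0% for UGT1A3 and 38.0% for UGT1A7. Within the first exons, UGT1A1 and UGT1A6 shared 0 windows with any other UGT1A first exon. For UGT1A10 it was 79 of 850 windows, shared with UGT1A8 and UGT1A9. AADAC and FMO6P shared 0 windows with any other gene, and FMO5 shared 3 of 6248, with B3GNT7.

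**Figure D1:**
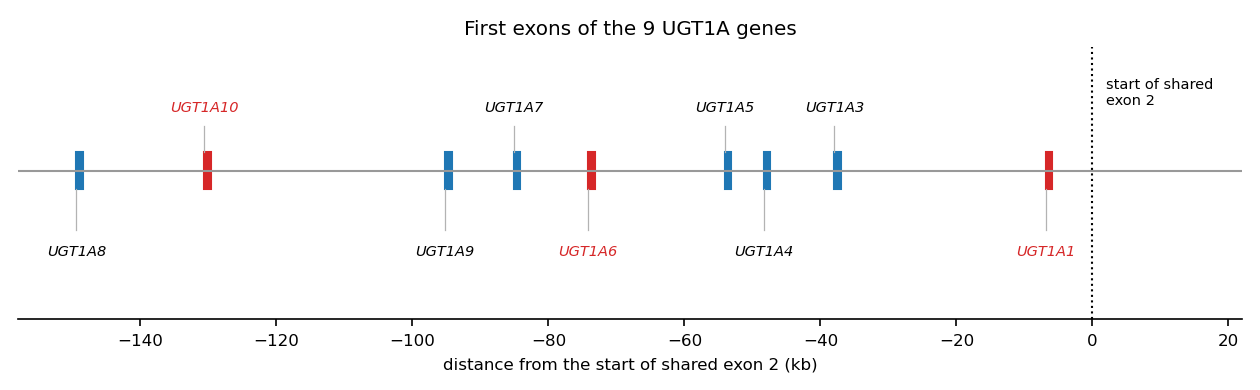
Positions of the first exons of the 9 UGT1A genes, as distance in kb before the start of the exon 2 that they share (dotted line); boxes are drawn to scale and members are in red. The first exon of UGT1A1 starts 6.79 kb, that of UGT1A6 74.2 kb and that of UGT1A10 130.6 kb before exon 2.

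In GENCODE 29 (GRCh38), UGT1A1 lies at chr2:233760248-233773299, UGT1A6 at chr2:233691607-233773300 and UGT1A10 at chr2:233636454-233773305, all on the plus strand and protein coding. Their 3′ ends coincide, and UGT1A6 is also covered over 20.5% of its exon bases by the opposite-strand genes AC114812.1 and AC114812.2. AADAC lies at chr3:151814037-151828488 on the plus strand and is protein coding. FMO5 lies at chr1:147175351-147243050 on the minus strand and is protein coding. FMO6P lies at chr1:171137740-171161568 on the plus strand, in the FMO cluster, and is annotated as a transcribed unitary pseudogene.

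In the untreated control, the members reached low to moderate levels. Per kb of merged exons, UGT1A6 had 2.72 ± 0.72 CPM (SD, n = 4), FMO6P 2.7 ± 0.332, UGT1A1 1.81 ± 1.3, AADAC 1.07 ± 0.37 and FMO5 0.453 ± 0.0618. UGT1A6 and FMO6P, FMO6P and UGT1A1, and UGT1A1 and AADAC differed by less than their spread, while AADAC lay above FMO5 by more than theirs. UGT1A10 was at 0 in all control libraries. The lengths of the UGT1A genes include exons that they share.

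**Figure D2:**
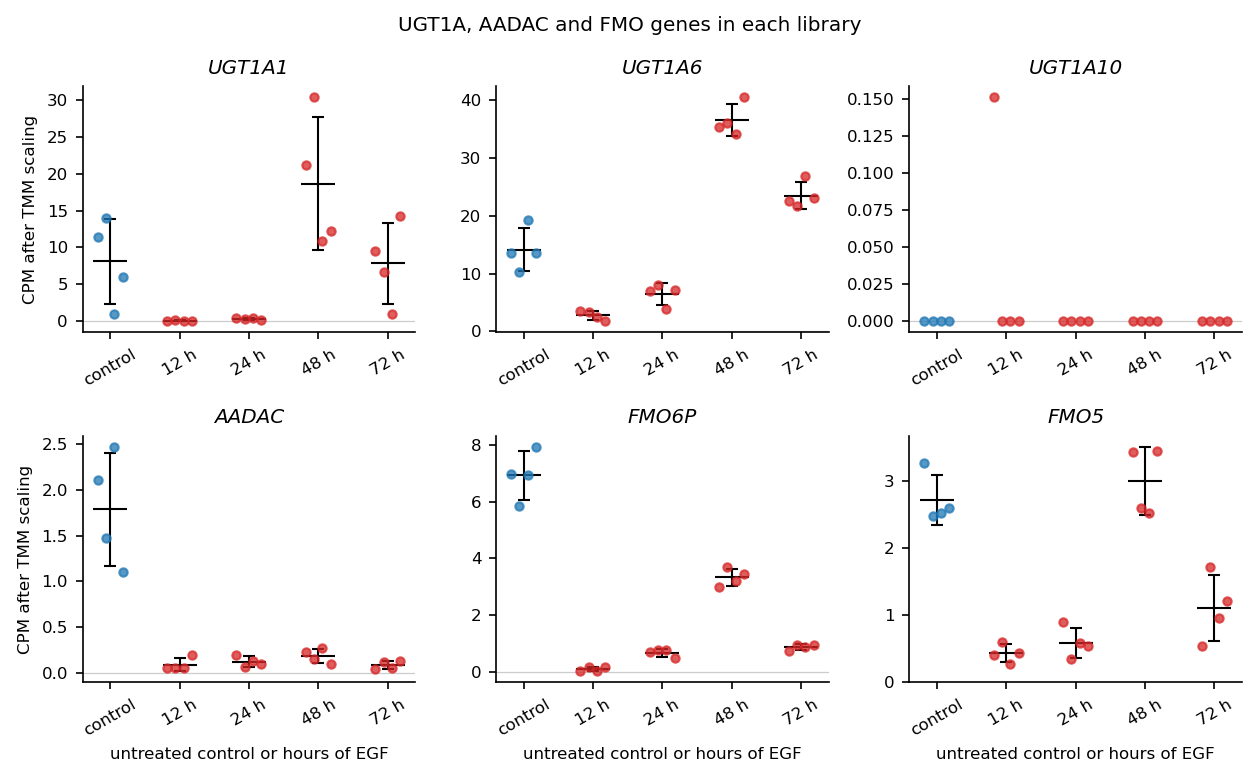
CPM after TMM scaling of the 6 members in each library; points are libraries (blue: control, red: EGF), the long dash is the mean and the bars are the SD of 4 libraries (not drawn for UGT1A10). UGT1A1, UGT1A6, FMO6P and FMO5 were low at 12 h and 24 h and higher at 48 h, AADAC stayed between 0.0385 and 0.266 CPM in all EGF libraries, and UGT1A10 was above 0 in 1 library.

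The UGT1A locus as a whole was below the control at 12 h and 24 h and above it at 48 h and 72 h. Summed over the 9 UGT1A genes, the level was 26.1 ± 0.621 CPM in the control (SD, n = 4). It was 3.44 ± 0.0956 CPM after 12 h, 8.46 ± 0.479 after 24 h, 66.2 ± 4.81 after 48 h and 38.6 ± 1.82 after 72 h of EGF. Against the control this was 7.57-fold lower at 12 h and 3.08-fold lower at 24 h, then 2.53-fold higher at 48 h and 1.48-fold higher at 72 h. The log2 fold changes were -2.92 (SE 0.0814), -1.62 (SE 0.073), 1.34 (SE 0.0655) and 0.56 (SE 0.0659). In single libraries, the sum was 26.9, 25.3, 26.1 and 26.2 CPM in the control and 3.58, 3.37, 3.42 and 3.39 CPM at 12 h. It was 8.5, 8.98, 7.82 and 8.53 CPM at 24 h, 63.8, 71.0, 60.6 and 69.3 CPM at 48 h, and 36.4, 37.9, 40.4 and 39.6 CPM at 72 h. No EGF library overlapped the control range, and no 2 groups overlapped each other. Since the members hold most of this sum, it is a description as well.

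How the counts were split among the UGT1A genes varied far more between replicates than their sum. In the control, the coefficient of variation over the 4 libraries was 2.38% for the sum, 26.4% for UGT1A6, 71.7% for UGT1A1 and 89.1% for UGT1A3. Control replicate 3 shows the split most clearly. It had 23 counts for UGT1A1, 451 for UGT1A6 and 115 for UGT1A3, while control replicate 2 had 334, 244 and 0. Their totals over the 9 genes were 612 and 603 counts. UGT1A3 was at 0 in 10 of the 20 libraries, namely 1 control, all 4 libraries at 12 h, 3 libraries at 24 h and 1 library each at 48 h and 72 h. In the other 10 libraries it had 32 to 327 counts. UGT1A5 had 31 counts in each of 2 libraries and 0 in the remaining 18. The UGT1A members are therefore given library by library, with the sum beside them.

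**Figure D3:**
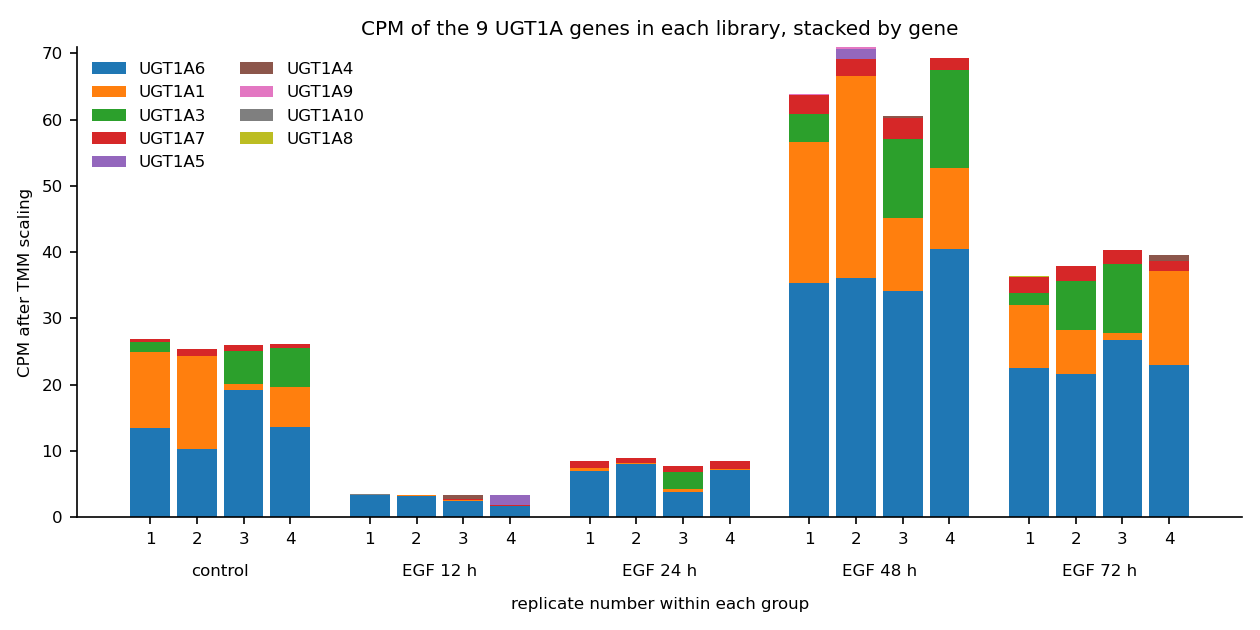
CPM of the 9 UGT1A genes stacked for each of the 20 libraries, by group and replicate number. The bar heights are close within a group (25.3 to 26.9 CPM in the control), while the parts given to UGT1A6 (blue), UGT1A1 (orange) and UGT1A3 (green) change from library to library.

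UGT1A6, which conjugates small phenols, held the largest part of the pooled UGT1A counts in each group, though not in every library. Its level was 13.5, 10.3, 19.2 and 13.6 CPM in the control, 3.43, 3.27, 2.54 and 1.77 at 12 h, and 7.06, 8.02, 3.78 and 7.12 at 24 h. It then reached 35.4, 36.1, 34.2 and 40.5 CPM at 48 h and 22.5, 21.6, 26.8 and 23.0 at 72 h. All libraries at 12 h and 24 h lay below all controls, and all libraries at 48 h and 72 h lay above them. The log2 fold change against the control was -2.37 (SE 0.213) at 12 h, -1.11 (SE 0.191) at 24 h, 1.37 (SE 0.173) at 48 h and 0.73 (SE 0.175) at 72 h. The share of UGT1A6 in the UGT1A counts was 40.5% to 73.7% in the control, 52.1% to 96.8% at 12 h, 48.4% to 89.3% at 24 h, 50.8% to 58.4% at 48 h and 57.1% to 66.4% at 72 h. These ranges overlap.

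UGT1A1, the enzyme that conjugates bilirubin, came close to the detection limit at 12 h. Its counts were 227, 334, 23 and 125 in the control and 0, 2, 1 and 0 at 12 h. They were 7, 4, 7 and 4 at 24 h, 383, 623, 288 and 270 at 48 h, and 248, 116, 17 and 223 at 72 h. In CPM, the group means were 8.1 ± 5.81, 0.041 ± 0.0522, 0.304 ± 0.116, 18.7 ± 9.06 and 7.83 ± 5.56 (SD, n = 4). All libraries at 12 h and 24 h lay below the lowest control, but at 48 h and 72 h the ranges overlapped with the control. The 3 counts at 12 h, against 709 in the control, give a ratio 207-fold lower, with a 95% counting interval of 70.7 to 1010. At 24 h the ratio was 27.1-fold lower, with an interval of 17.8 to 43.6. Such intervals and detection limits cover counting error only. At 48 h the log2 fold change was 1.20 (SE 0.608) and at 72 h -0.05 (SE 0.632).

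The share of UGT1A1 in the UGT1A counts was lowest at 12 h and 24 h in the pooled counts. In single libraries it was 3.76% to 55.4% in the control, 0% to 3.23% at 12 h, 2.29% to 5.74% at 24 h, 17.6% to 42.9% at 48 h and 2.35% to 35.9% at 72 h. The ranges at 12 h lay below the control range, while those at 24 h, 48 h and 72 h overlapped with it. Over the pooled counts of a group, UGT1A1 held 30.9% of the control, 1.13% of the 12 h, 3.5% of the 24 h, 27.3% of the 48 h and 20.4% of the 72 h counts.

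UGT1A10, an enzyme known from the gut, was not detectable in 19 of the 20 libraries. It had 3 counts in EGF 12 h replicate 1 and 3 counts in all, so no fold change can be given. Of its transcript windows, 26.6% occur in no other gene. UGT1A8, UGT1A9 and UGT1A4 had 3, 8 and 34 counts over all libraries.

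Among the other UGT1A genes, 2 of 6 passed the filter, and these were tested. UGT1A7 was 0.764 ± 0.32 CPM in the control and 0.091 ± 0.11 at 12 h, a log2 fold change of -3.01 (SE 0.541, adjusted p = 2.09e-05 from the quasi-likelihood test of edgeR, adjusted after Benjamini and Hochberg). It did not pass at 24 h (log2 fold change 0.38, adjusted p = 0.369). At 48 h it was higher than the control by 1.75 on the log2 scale (SE 0.318, adjusted p = 8.23e-05), and at 72 h by 1.45 (SE 0.325, adjusted p = 0.000442). UGT1A3 was at 0 in all libraries at 12 h, and with 0 to 123 counts per control library it passed the test at none of the 4 times (adjusted p = 0.0509, 0.251, 0.417 and 0.687). UGT1A7 and UGT1A3 share the same later exons with the members.

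AADAC was low at all EGF times. It had 42, 35, 58 and 23 counts in the control, and 1, 1, 1 and 4 counts at 12 h. It had 4, 1, 2 and 2 counts at 24 h, 4, 3, 7 and 2 at 48 h, and 1, 2, 1 and 2 at 72 h. Every EGF library lay below every control library, and the EGF groups overlapped with each other. The mean was 1.79 ± 0.617 CPM in the control, against 0.0878 ± 0.0689, 0.12 ± 0.0595, 0.181 ± 0.0778 and 0.0839 ± 0.0434 CPM at 12, 24, 48 and 72 h (SD, n = 4). From the summed counts the ratio was 19.8-fold lower at 12 h (95% counting interval 9.39 to 50.1), 14.8-fold at 24 h (7.59 to 32.9), 9.76-fold at 48 h (5.82 to 17.5) and 23.1-fold at 72 h (10.4 to 63.9). These intervals overlap. With at most 7 counts in an EGF library, a difference between the EGF times was not detectable at this depth.

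FMO6P had 4 counts or fewer per library at 12 h and was partly back at 48 h. Its counts were 139, 139, 163 and 165 in the control and 1, 3, 1 and 4 at 12 h. They were 14, 14, 12 and 10 at 24 h, 54, 76, 84 and 76 at 48 h, and 19, 17, 16 and 15 at 72 h. Every EGF library lay below every control. Group means were 6.92 ± 0.852 CPM in the control, then 0.115 ± 0.0727, 0.685 ± 0.138, 3.33 ± 0.314 and 0.887 ± 0.109 CPM. At 12 h the summed counts were 59.1-fold lower (95% counting interval 30.9 to 130). The log2 fold change was -3.34 (SE 0.192) at 24 h, -1.05 (SE 0.156) at 48 h and -2.97 (SE 0.184) at 72 h. The groups at 12, 24 and 48 h did not overlap with each other, while those at 24 h and 72 h did.

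FMO5, an unusual member of the family that also oxidises ketones to esters, was lowered by less than FMO6P and overlapped with the control range at 48 h. Its counts were 65, 59, 59 and 54 in the control, 8, 11, 5 and 9 at 12 h, 18, 6, 9 and 11 at 24 h, 62, 53, 66 and 76 at 48 h, and 14, 30, 17 and 19 at 72 h. Means were 2.71 ± 0.37 CPM in the control and 0.427 ± 0.133, 0.585 ± 0.228, 2.99 ± 0.515 and 1.1 ± 0.489 CPM after EGF. The log2 fold change was -2.65 (SE 0.305) at 12 h, -2.18 (SE 0.291) at 24 h, 0.14 (SE 0.239) at 48 h and -1.33 (SE 0.268) at 72 h. All libraries at 12, 24 and 72 h lay below all controls, and at 48 h the ranges overlapped.

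**Figure D4:**
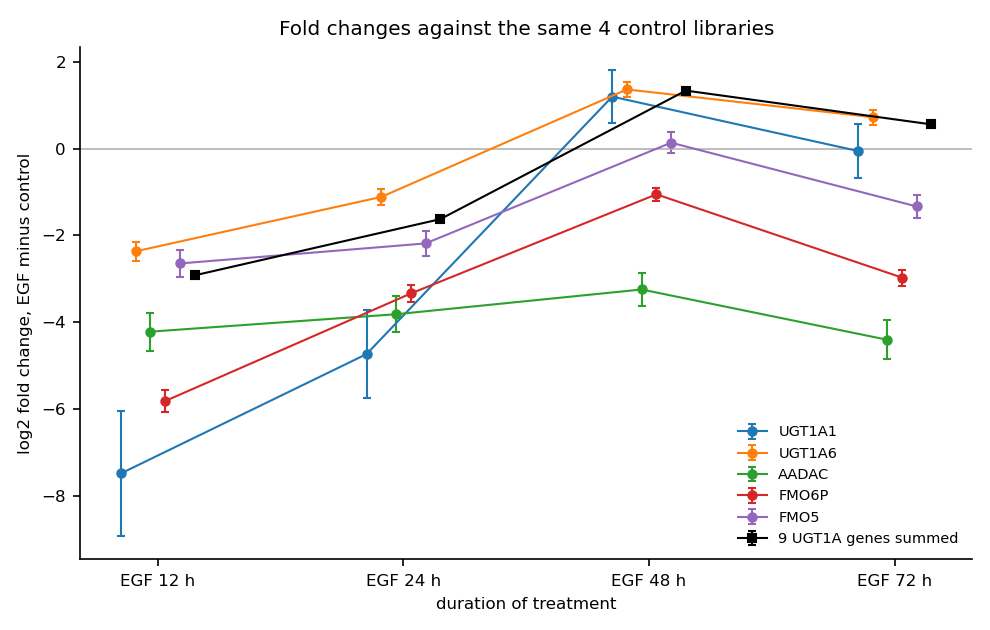
Log2 fold change of 5 members and of the summed UGT1A genes against the control, from the edgeR fit of all 20 libraries, with bars of 1 SE; all times are compared with the same control libraries, and the value of UGT1A1 at 12 h rests on 3 counts. Values are highest at 48 h for each gene, and that of AADAC is at most -3.25. For AADAC, a difference between the EGF times was not detectable at this depth.

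Each time point is set against the same 4 control libraries, so the 4 comparisons are not independent. At 12 h, 5 of the 5 members that passed the filter had all EGF libraries below all controls, which held for 31.4% of the 16522 genes tested. At 24 h it was again 5 of 5, against 24% of all genes. At 48 h, UGT1A6 lay above all controls (19.6% of all genes did so), and AADAC and FMO6P lay below them (15.3%). At 72 h, UGT1A6 was above (26.1%), and AADAC, FMO6P and FMO5 were below (25.9%). Since the members were chosen on these contrasts, nothing is read from these counts.

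Of the EGF times, 48 h had the highest mean of each member that passed the filter. From 12 h to 24 h, UGT1A1, UGT1A6 and FMO6P had all libraries higher (26.5% of all genes did so), and FMO5 and AADAC overlapped. None of the 5 had all libraries lower (27% of all genes). From 24 h to 48 h, UGT1A1, UGT1A6, FMO6P and FMO5 had all libraries higher (23.1% of all genes), and none had all libraries lower (21.5%). The ratio of summed counts was 60.6-fold for UGT1A1 (95% counting interval 39.9 to 96.9), 5.52-fold for UGT1A6 (5.01 to 6.08), 4.94-fold for FMO6P (3.65 to 6.81) and 4.98-fold for FMO5 (3.6 to 7.02). For AADAC it was 1.51-fold, with an interval of 0.63 to 3.89. From 48 h to 72 h, UGT1A6, FMO6P and FMO5 had all libraries lower (17.3% of all genes), by 1.56-fold (1.47 to 1.65), 3.84-fold (2.94 to 5.09) and 2.85-fold (2.21 to 3.71).

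A list of 100 other drug-metabolism genes was examined beside the members. Of these, 90 had a count in some library and 53 passed the filter. With an adjusted p under 0.05 in edgeR as the threshold, 15 of the 53 were higher and 26 lower at 12 h, while 32.9% of all genes were higher and 36.5% lower. At 24 h, 15 were higher and 24 lower (29.2% and 29.6% of all genes). At 48 h, 17 were higher and 14 lower (24% and 21.8%), and at 72 h 18 were higher and 17 lower (30.6% and 31%). The median log2 fold change of the list was -0.45 at 12 h and 0.10 at 48 h, against -0.05 and 0.01 over all genes. From 12 h to 24 h, 13 were higher and 13 lower (27.9% and 25.9% of all genes). From 24 h to 48 h, 26 were higher and 12 lower (25.9% and 24.3%). From 48 h to 72 h, 9 were higher and 19 lower (17.9% and 17.9%).

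The other FMO genes and the esterases include the nearest relatives of the members. FMO4, which encodes another monooxygenase of the cluster of FMO6P, was the 1 of 4 other FMO genes that passed the filter. It was 7.90 ± 0.83 CPM in the control, fell to 1.44 ± 0.259 at 12 h (log2 fold change -2.44, SE 0.156, adjusted p = 1.6e-12), and was 8.62 ± 0.377 at 48 h (0.13, adjusted p = 0.442). Of 9 esterase and deacetylase genes, 5 passed the filter, and at 12 h 1 was higher and 3 were lower (32.9% and 36.5% of all genes). CES1, a carboxylesterase of drugs and lipids, fell at all 4 times, with log2 fold changes of -0.48, -1.56, -2.35 and -1.95 at 12, 24, 48 and 72 h (highest adjusted p = 0.00131). CES2 fell at 12 h (-1.09, adjusted p = 9.58e-07) and did not differ past the threshold at 48 h (-0.10, adjusted p = 0.615). NCEH1, a neutral esterase close in sequence to AADAC, rose at all 4 times, by 0.59, 0.59, 0.59 and 0.67 on the log2 scale (highest adjusted p = 2.09e-06). AADACL2, AADACL3 and AADACL4 did not pass the filter.

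Other enzymes of oxidation and conjugation were mostly lower at 12 h. Of 20 genes for drug-oxidizing CYP enzymes and partners, 8 passed the filter. Of these, 7 were lower and 1 higher at 12 h (36.5% and 32.9% of all genes). At 48 h, 3 were lower and 3 higher (21.8% and 24% of all genes). The gene that was higher at 12 h was CYP3A5 (log2 fold change 0.72, adjusted p = 0.0285 in edgeR). It was also higher at 24, 48 and 72 h, by 1.25, 0.96 and 1.54 (highest adjusted p = 0.00616). CYP1B1, a target of the aryl hydrocarbon receptor, fell from 176 ± 10.3 to 36.1 ± 1.42 CPM at 12 h (log2 fold change -2.28, adjusted p = 1.18e-16) and was 240.1 ± 13.5 CPM at 48 h (0.45, adjusted p = 7.64e-05). CYP1A1 was at 0.247 CPM in the control, with -1.60 at 12 h (adjusted p = 0.0379) and 1.62 at 48 h (adjusted p = 0.0054). EPHX1, the microsomal epoxide hydrolase, fell by 1.78 on the log2 scale at 24 h (SE 0.108, adjusted p = 1.01e-12). Of 19 sulfo-, acetyl-, methyl- and glutathione transferases tested, 12 were lower and 2 higher at 12 h (36.5% and 32.9% of all genes). At 48 h, 8 were lower and 2 higher (21.8% and 24% of all genes). SULT1E1, which sulfates estrogens, fell by 2.45 at 12 h (SE 0.25, adjusted p = 6e-09).

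Some genes for the supply and export of conjugates rose at 12 h. UGDH, which makes UDP-glucuronate, rose by 0.74 on the log2 scale at 12 h (SE 0.107, adjusted p = 1.65e-06), and UGP2, which makes its precursor, by 0.39 (adjusted p = 0.000497). SLC35D1, the transporter of UDP-glucuronate, passed at none of the 4 times. Of 6 drug transporters tested, 4 were higher and 1 lower at 12 h (32.9% and 36.5% of all genes). At 24, 48 and 72 h, 5 were higher each (29.2%, 24% and 30.6% of all genes). ABCC4 rose from 5.87 ± 1.62 to 38.6 ± 1.2 CPM at 12 h (log2 fold change 2.72, SE 0.151, adjusted p = 1.24e-13). ABCC3, which exports glucuronides, rose from 20.01 ± 1.72 to 65.2 ± 7.05 CPM (1.71, SE 0.107, adjusted p = 1.26e-12). ABCC2, another exporter of glucuronides, had log2 fold changes of -0.70, 0.64, 1.36 and 0.93 over time (highest adjusted p = 0.00618).

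**Figure D5:**
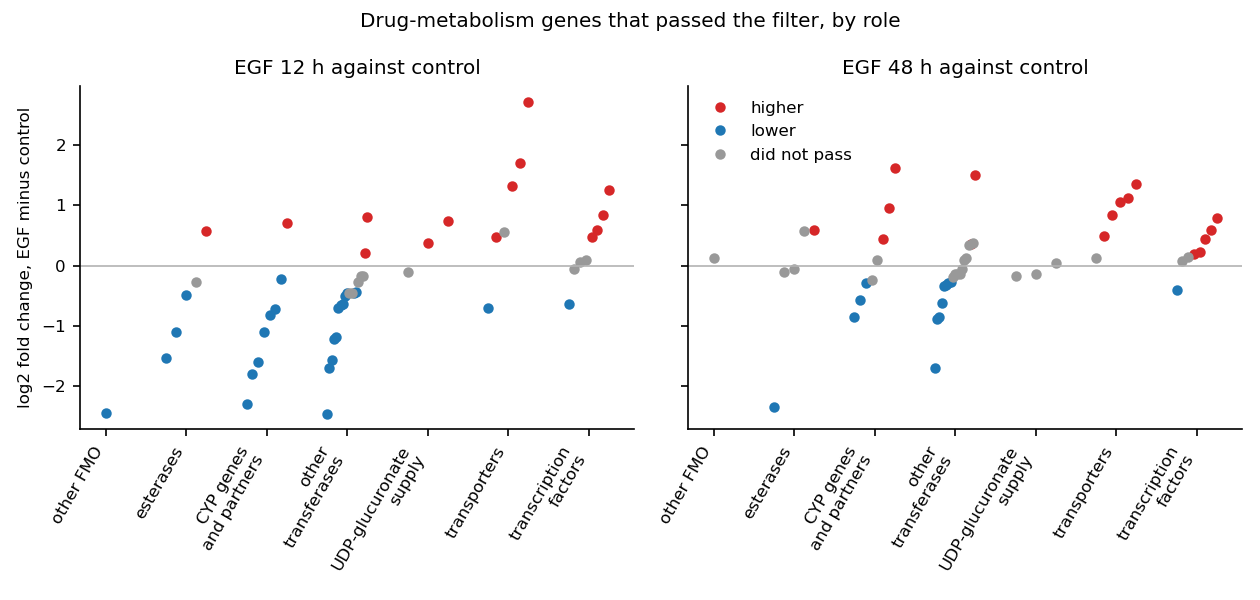
Log2 fold changes against the control at 12 h (left) and 48 h (right) of drug-metabolism genes that passed the filter, by role; each point is a gene, red higher and blue lower with an adjusted p under 0.05, grey not passed. At 12 h, 7 of 8 CYP genes and partners and 12 of 19 other transferases were lower (36.5% of all genes), while 4 of 6 transporters were higher (32.9% of all genes).

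Of the transcription factors known to act on these genes, AHR, the aryl hydrocarbon receptor, rose from 349 ± 53.4 to 835 ± 41.6 CPM at 12 h (log2 fold change 1.26, SE 0.0988, adjusted p = 6.82e-11) and was 529 ± 81.3 CPM at 48 h (0.60, adjusted p = 2.3e-05). NFE2L2, which drives the antioxidant response, was at 389 CPM in the control and of the 4 times passed the test at 48 h alone, with a log2 fold change of 0.19 (adjusted p = 0.0147). NR1I2 and HNF4A, which act on these genes in liver, did not pass the filter.

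Stretches before the annotated starts of members are given next, as a description. RefSeq starts were found for 4 of the 6 members, in 5 windows of 250 bases (GRCh38.p14). The lines hold the parts that lie outside annotated exons, 5′ to 3′ on the plus strand, for UGT1A1 at chr2:233760020-233760247, UGT1A6 at chr2:233692640-233692865 and AADAC at chr3:151813866-151814036. Capitals mark matches to the motifs searched.
UGT1A1: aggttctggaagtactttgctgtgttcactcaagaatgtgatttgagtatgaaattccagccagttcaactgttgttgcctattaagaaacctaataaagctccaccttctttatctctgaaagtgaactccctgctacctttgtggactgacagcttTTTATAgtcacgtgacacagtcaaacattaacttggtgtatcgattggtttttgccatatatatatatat
UGT1A6: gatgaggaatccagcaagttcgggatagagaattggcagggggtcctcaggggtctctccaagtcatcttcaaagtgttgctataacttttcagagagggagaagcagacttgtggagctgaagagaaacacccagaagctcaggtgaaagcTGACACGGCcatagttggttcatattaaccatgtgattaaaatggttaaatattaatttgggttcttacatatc
AADAC: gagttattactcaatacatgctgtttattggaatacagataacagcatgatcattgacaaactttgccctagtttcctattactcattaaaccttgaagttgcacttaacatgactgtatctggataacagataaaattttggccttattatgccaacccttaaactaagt
The motifs searched on both strands were the AHR core GCGTG, the antioxidant response element TGACNNNGC, the AP-1 site TGANTCA and the TATA box TATAAA. In the same windows before 35116 RefSeq starts they occurred in 32.2%, 10.9%, 6.57% and 10.7%. UGT1A1 had 1 match to TATAAA, on the strand opposite to the gene and at -92 to -87 from the start. Its printed stretch ends inside a run of alternating t and a on the strand of the gene. The letters TATAAA do not match this run, and other forms of a TATA box were not searched. This UGT1A6 window had the antioxidant element at 98 to 90 bases before the start, and the window at the other UGT1A6 start had 1 AHR core. FMO5 had 1 TATA box match, also on the strand opposite to the gene, at -30 to -25, and AADAC had 0 matches to the 4 motifs. These are matches of letters only.

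Among neighbours on the chromosomes, some genes rose and others fell. Of 20 neighbouring genes, 11 passed the filter, and at 12 h 4 were higher, 5 were lower and 2 did not pass. Over all genes, 32.9% were higher and 36.5% lower. Near UGT1A, USP40 fell by 1.54 at 12 h on the log2 scale (SE 0.106, adjusted p = 5.93e-12) and was higher by 0.27 at 48 h (adjusted p = 0.0261), while HJURP did not pass at either time (adjusted p = 0.549 and 0.922). TRPM8 rose by 4.28 at 72 h (SE 0.251, adjusted p = 3.7e-13). Near AADAC, IGSF10 fell by 3.39 at 12 h (SE 0.411, adjusted p = 8.55e-08) and by 2.38 at 48 h (adjusted p = 6.82e-06). Near FMO5, CHD1L fell by 0.45 at 12 h and PRKAB2 rose by 0.75 (adjusted p = 9.27e-05 and 2.06e-09). Near FMO6P, PRRC2C rose by 0.68 at 12 h (adjusted p = 4.97e-07), and FMO4, given above, fell.

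The genes with the most similar profile to each member were sought among 13880 genes with a mean of at least 1 CPM, by Pearson's r of log2 CPM over the 20 libraries. The libraries share 5 groups, so r mainly follows the group means, and no p is given. For UGT1A1 these were DTX3 (r = 0.945), ZBED5-AS1 (0.939) and GBAP1 (0.938). For UGT1A6 they were GASK1B (0.978), F8 (0.973), the gene of coagulation factor VIII, and MYLK-AS1 (0.967). For AADAC they were FOXA1 (0.959), a transcription factor of luminal epithelium, CCL28 (0.954) and NCALD (0.954). For FMO6P they included ZSCAN31 (0.983) and ALDH5A1 (0.981), and for FMO5 GSTA4 (0.963), a glutathione transferase, NUDT16 (0.959) and HCG15 (0.946). Between members, r was highest for FMO6P and FMO5 (0.9) and lowest for UGT1A6 and AADAC (0.168).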

How the data were processed

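RNA of MDA-MB-468 cells was sequenced by the authors from Lexogen Corall mRNA libraries as single-end reads of 75 bases, and the labels name the hg38 build and DESeq2. The aligner, the annotation and any use of molecular identifiers are not given in the sources used here, and PCR duplicates may therefore have been counted. The deposited counts are whole numbers that are not normalized, and they were treated here as estimated counts rounded to whole numbers, for all 60271 genes in 20 libraries. Normalized scores, which the authors deposited beside the counts after DESeq2, served as an alternative only. The authors' fold changes and p-values of their comparisons were not used.

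Counts were analyzed in edgeR 4.0.16 (R 4.3.3). After filterByExpr 16522 of 33535 genes with a count remained. TMM scaling and a model of 5 group means were used, with the quasi-likelihood test and Benjamini-Hochberg adjustment over all genes tested. The prior count was 0.125 for fold changes and 2 for log2 CPM. Counting intervals are exact and at a level of 95%. The UGT1A sums were formed from the counts of each library and fitted as added features. On simulated data for EGF 12 h against the control, 197 of 200 changed genes and 15 unchanged genes were called among 16004. Replicate libraries differed by 3.53 to 57.5 times the sampling variance over 30 pairs, so no library was counted as a repeat.

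The members and lists were chosen with earlier results of these data known. Named were all members, the other UGT1A and FMO genes, esterases and UDP-glucuronate genes, the 3 genes with the highest and the 3 with the lowest fold changes among called genes of the other lists at each time with a mean of at least 1 CPM (of which some are given), 9 genes that were named whatever they did, such as AHR and CYP1B1, neighbours, and the 3 genes most like each member. Of the genes named by this rule, 2 are not reported here. Gene models were taken from GENCODE 29, in which 58036 of the 60271 identifiers were found, and starts from RefSeq (GRCh38.p14). Alternatives were other scalings, the DESeq2 1.42.0 Wald test, no filter, the 8 libraries compared alone, a block per replicate number, a prior count of 2, the normalized values and leaving out each library.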

Additional observations from a re-analysis of the deposited data

Results flagged for a closer look

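In AADAC, EGF 12 h replicate 4 stood apart from the other libraries of its group, with 0.191 CPM from 4 counts, where the other three libraries had 1 count each. In FMO5, control replicate 1 stood apart with 3.26 CPM, while the other controls were at 2.48 to 2.59 CPM. In both, the gap to the nearest library made up 0.966 and 0.854 of the group's range. Of 30 groups of 4 libraries examined, 2 were picked out in this way, and chance picks out about 1 in 20.

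UGT1A6 lay below all controls in all libraries at 12 h and above them in all libraries at 48 h. The log2 fold change at 48 h exceeded that at 12 h by 3.73. For the 9 UGT1A genes summed, the same held, with a difference of 4.26. Both times are set against the same controls, and these differences were not tested.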

How the results depend on the processing

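Each member that passed the filter and each UGT1A sum kept its direction under all alternatives, except UGT1A1 at 72 h. All counts over the drug-metabolism list stayed within 1.5 times. Outside the leave-one-out fits, 233 values for members and sums moved by less than the spread between replicates, and 19 by more. With a prior count of 2, log2 fold changes of genes with few counts shrank: UGT1A1 -5.89 and FMO6P -5.03 at 12 h, and AADAC -3.32, -3.10, -2.75 and -3.41 at 12, 24, 48 and 72 h. From the deposited normalized values, log2 fold changes were -3.48 at 12 h and -3.74 at 72 h for AADAC, -1.21 at 48 h and -3.18 at 72 h for FMO6P, and 0.49 at 48 h for FMO5. The UGT1A sum, whose alternatives were chosen after seeing the data, gave -3.04, -1.88 and 0.51 at 12, 24 and 72 h from the same values. Scaled by library size it gave -3.20, -1.77 and 0.49, and at 12 h -3.08 scaled by upper quartiles and -2.88 without a filter. The cause was not tested. Leaving out each library in turn gave -4.91 to -4.02 for AADAC at 12 h. The lower value was that without EGF 12 h replicate 4. For UGT1A1 the range was -8.44 to -7.06 at 12 h, with -8.44 without EGF 12 h replicate 2, and -0.47 to 0.37 at 72 h, so that its sign at 72 h depended on the library left out. UGT1A10 was left out of the alternatives, since it did not pass the filter and had 3 counts in all.

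Replicate numbers did not pair the libraries throughout. Over 40 same-numbered pairs r was -0.239 to 0.348, with 5 over 0.1. In 11 of the 40 pairs the best correlation was with the same number. Between the control and EGF 48 h, r was 0.328 for replicate 2 and 0.348 for replicate 3, but 0.000142 and 0.0272 for replicates 1 and 4. Some pairing between these groups is therefore possible and was not tested further. With the replicate block, UGT1A6 was -2.36 and FMO5 -2.66 at 12 h, UGT1A1 was 0.04 at 72 h, and the block moved no list count by over 1.5 times. Counts under about 3 per library limit what can be said of AADAC, UGT1A1 and FMO6P at 12 h.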
